A study of Mus musculus with 9 samples.

Results

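S100a8, S100a9, Saa3, Slpi, Wfdc21, Chil1, Lyz2 and Retnlg are a set of genes for secreted or cytosolic defence proteins of myeloid cells: S100 proteins, an acute phase protein, antiprotease-family proteins, and chitinase-like, lysozyme and resistin-like proteins. They were taken by symbol, and all 8 were found among the 22173 genes listed for each library. The libraries are RNA sequencing of wild-type neutrophils from mouse bone marrow, held inside gelatin methacryloyl hydrogel for 2 days in medium with fetal bovine serum. The gels had a low (1.5 kPa), middle (2.6 kPa) or high (5.7 kPa) stiffness, low being the control, with 3 libraries for each stiffness, numbered 1 to 3. The study asks what the stiffness of the surroundings does to the polarization state of neutrophils. The sources used here give neither the purity of the cells nor whether libraries of a group came from separate mice or cultures. A p-value therefore reflects no more than the variation among these 9 libraries, some of which may be technical.

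S100A8 and S100A9 are small calcium-binding proteins that pair to form calprotectin, which fills the neutrophil cytosol, withholds zinc and manganese from microbes and, once released, is recognised by TLR4 and the receptor RAGE. Serum amyloid A3, the product of Saa3, is an acute phase protein that in mice is made outside the liver by macrophages and other cells. SLPI inhibits the serine proteases neutrophil elastase and cathepsin G, and Wfdc21 encodes another small secreted protein of the same whey acidic protein domain family. The product of Chil1 (BRP-39, the mouse counterpart of human YKL-40) binds chitin without cleaving it, lysozyme M from Lyz2 cleaves bacterial cell wall peptidoglycan, and resistin-like gamma from Retnlg is a cysteine-rich secreted protein made in mouse bone marrow and neutrophils. C/EBP factors are transcription factors of the granulocyte lineage, and C/EBP and NF-kB factors drive acute phase genes during inflammation.

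The 250 bases before the transcription start are shown for 3 genes whose transcripts were higher in stiff gels in every replicate number, and for Retnlg, which was lower in every number. They come from RefSeq promoter windows on GRCm38.p6, where 7 of the 8 genes were matched (not Wfdc21); the files' own build is GRCm39, and the coordinates below are not those of the files. Each sequence runs 5′ to 3′ on the gene's strand and ends at the base before the start, and capitals mark matches to the C/EBP motif TTNNGNAA on either strand.
Saa3 (chr7:46715677-46715926, minus strand): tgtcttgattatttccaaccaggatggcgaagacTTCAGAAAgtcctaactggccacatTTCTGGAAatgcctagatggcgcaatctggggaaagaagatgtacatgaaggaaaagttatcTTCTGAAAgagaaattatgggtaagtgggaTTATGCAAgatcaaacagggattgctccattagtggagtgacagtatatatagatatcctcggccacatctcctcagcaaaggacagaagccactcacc
Slpi (chr2:164356508-164356757, minus strand): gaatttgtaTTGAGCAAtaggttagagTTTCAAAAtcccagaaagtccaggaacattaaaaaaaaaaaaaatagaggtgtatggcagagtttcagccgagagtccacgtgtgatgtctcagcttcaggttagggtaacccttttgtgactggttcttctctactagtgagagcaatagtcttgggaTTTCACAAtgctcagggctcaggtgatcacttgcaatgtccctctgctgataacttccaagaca
Chil1 (chr1:134181906-134182155, plus strand): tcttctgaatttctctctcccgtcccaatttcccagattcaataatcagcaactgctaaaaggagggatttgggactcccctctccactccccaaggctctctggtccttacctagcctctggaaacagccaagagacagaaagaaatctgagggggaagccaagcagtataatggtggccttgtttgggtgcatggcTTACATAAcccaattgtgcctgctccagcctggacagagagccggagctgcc
Retnlg (chr16:48872358-48872607, plus strand): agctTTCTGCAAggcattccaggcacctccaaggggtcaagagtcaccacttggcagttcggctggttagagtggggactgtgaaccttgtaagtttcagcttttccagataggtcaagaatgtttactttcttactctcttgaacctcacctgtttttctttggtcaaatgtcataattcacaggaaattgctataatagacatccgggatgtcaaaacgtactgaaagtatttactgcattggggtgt
The Saa3 window held 4 matches, whose 5′ ends lie 216, 191, 129 and 99 bases before the start, and the Slpi window held 3, at 241, 223 and 64 bases. The Chil1 window held 1 match, 52 bases before the start, and the Retnlg window held 1, at 246 bases. The windows of S100a8 and Lyz2 held 1 match each and that of S100a9 held 2, so all 7 windows had at least 1, against 36.8% of 32851 promoter windows of the same length. A match to the NF-kB consensus, GGGACTCCCC, stood 179 bases before the start of Chil1, and none was in the other 6 windows (3.9% of all windows have 1). S100a8 had a TATAAA match 30 bases before its start (12.4% of all windows). The AP-1 motif TGANTCA (6.75% of all windows) and the STAT motif TTCNNNGAA (7.02%) had 0 matches in the 7 windows. Both strands were searched for each motif, and no match overlapped that of another motif. These are letters in a window and do not show binding.

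The libraries held 13.2 M to 19.5 M counts each, 14042 to 14914 genes had at least 1 count, and 12094 genes were tested, among them all 8 genes of the set. The set took 0.886% to 2.72% of a library's counts, and no gene of it had fewer than 430 counts in any library. Levels are CPM, that is, counts relative to the library's total, scaled with TMM factors, and comparisons of levels between genes use CPM per kilobase of exonic gene size. Replicate 1 stood apart in every group: 7909 of the tested genes differed between replicate 1 and replicates 2 and 3, and by edgeR 0 differed between replicates 3 and 2 (150 at an unadjusted p under 0.05). In replicate 1 neutrophil markers summed to 2095 CPM in the low, 2281 CPM in the middle and 2381 CPM in the high group, against 8950 to 13896 CPM in the other 6 libraries. Each comparison of stiffness is therefore given from a fit on the groups alone and from a fit that also holds the replicate number as a block. The fit on the groups alone was set as the main test, and the block was its named alternative. A gene is said to have risen or fallen where its adjusted p was under 0.05 in the fit with the block, and log2 fold changes are from that fit, ± standard error (n = 3 per group), unless the other is named.

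Per kilobase, Lyz2 was highest, with a mean of 9731 CPM per kilobase over the 9 libraries (range 5221 to 11973), which placed it at rank 2 of all genes. S100a8 followed with 8525 (2492 to 14537, rank 3), S100a9 with 5941 (1899 to 10266, rank 5) and Saa3 with 4860 (1021 to 9125, rank 7). Slpi had 672 CPM per kilobase (348 to 1203), Wfdc21 had 328 (87.3 to 585), Retnlg had 323 (51.4 to 756) and Chil1 had 154 (30.1 to 294). The ranges of every pair of neighbours in this order overlap. Retnlg varied most between libraries, 14.7-fold from its lowest to its highest CPM, and Lyz2 least, 2.29-fold.

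**Figure D1:**
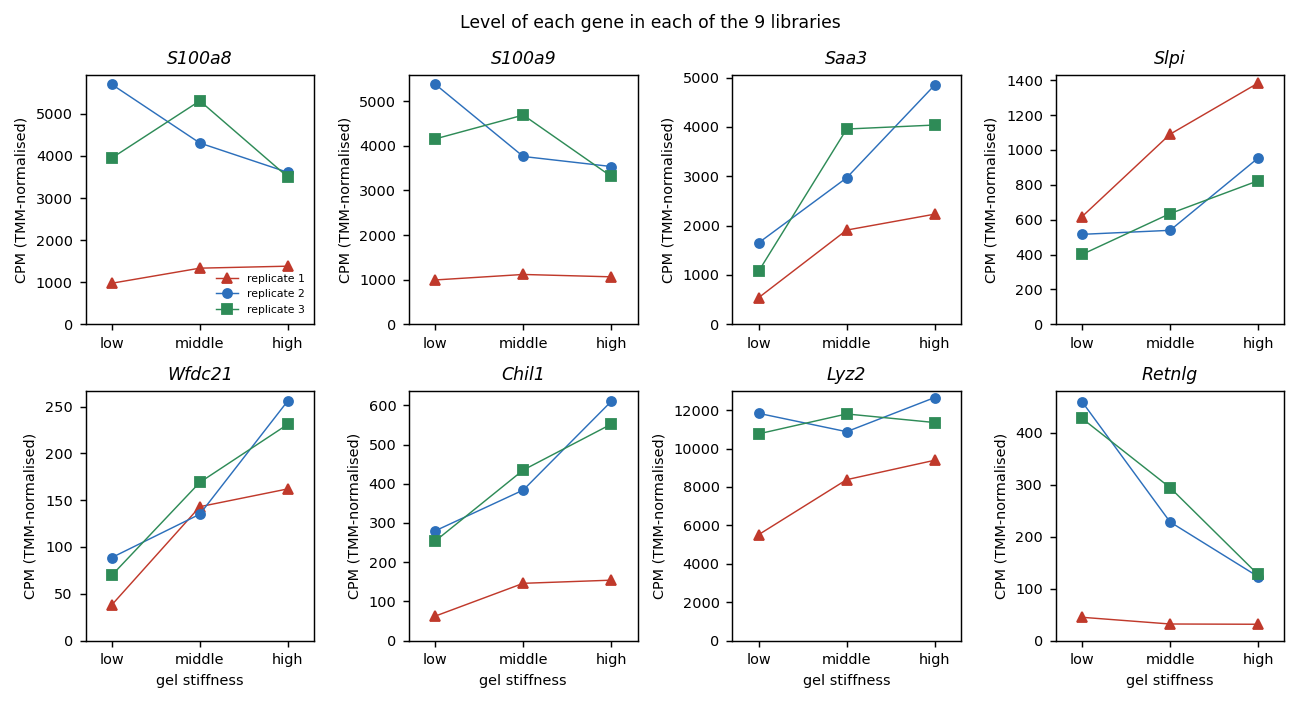
Level of each of the 8 genes (y axis, TMM-normalised CPM, linear and starting at 0) in the 9 libraries by gel stiffness (x axis, low to high), with 1 line and marker for each replicate number. Saa3, Slpi, Wfdc21 and Chil1 climb with stiffness in all 3 lines, Retnlg descends, and replicate 1 lies below replicates 2 and 3 at every stiffness for S100a8, S100a9, Saa3, Chil1, Lyz2 and Retnlg and above them for Slpi.

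High against low is the widest step in stiffness. Saa3, Wfdc21, Chil1 and Slpi were higher in high-stiffness gels and Retnlg was lower, while S100a8, S100a9 and Lyz2 were not called. Saa3 and Wfdc21 were 3.52-fold and 3.36-fold higher, Chil1 and Slpi 2.26-fold and 2.03-fold higher, and Retnlg 2.67-fold lower. With the block 4 of the 8 genes rose and 1 fell, where 15.5% of all tested genes were called, made up of 6.72% of tested genes higher and 8.73% lower. The groups alone called 0 of the 8, where 0.091% of all tested genes were called (3 of the 8, Saa3, Slpi and Wfdc21, and 7.72% of tested genes at an unadjusted p under 0.05). DESeq2 on the groups alone called 2, Saa3 and Wfdc21, and 1.88% of the genes it tested. Of the 8, 5 were higher in high than in low within all 3 replicate numbers and Retnlg was lower in all 3, against 23.7% and 24.8% of tested genes. The calls of Saa3, Wfdc21, Chil1 and Slpi held in all 9 fits that left out a single library. The median log2 fold change of the 8 genes was 0.66, beside 0.00 for all tested genes.

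Saa3 had 542, 1653 and 1079 CPM in low replicates 1 to 3, 1910, 2969 and 3957 CPM in middle, and 2232, 4846 and 4038 CPM in high. Every high and every middle library was above every low library. The log2 fold change of high against low was 1.82 ± 0.18 (adjusted p = 0.000436), and 1.76 ± 0.48 on the groups alone (adjusted p = 0.324). The means were 1092 ± 556 CPM in low, 2945 ± 1023 CPM in middle and 3705 ± 1338 CPM in high (SD, n = 3 each). Within replicates 1, 2 and 3 the difference of high minus low was 2.04, 1.55 and 1.9 on the log2 scale. Its relatives Saa1 and Saa2, the serum amyloid A genes of liver, had means of 0.345 and 0.0759 CPM.

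Slpi, the protease inhibitor, had 618, 516 and 401 CPM in low replicates 1 to 3, 1090, 539 and 635 CPM in middle, and 1383, 953 and 823 CPM in high. The lowest high library was above the highest low library, and replicate 1 was the highest library at each stiffness. High against low gave 1.02 ± 0.13 (adjusted p = 0.000674), and 1.04 ± 0.32 on the groups alone (adjusted p = 0.399). Wfdc21 had 38.2, 88.7 and 69.8 CPM in low, 143, 135 and 169 CPM in middle, and 162, 256 and 231 CPM in high. Its high and middle libraries were all above its low libraries. High against low gave 1.75 ± 0.21 (adjusted p = 0.00311), and 1.72 ± 0.31 on the groups alone (adjusted p = 0.126). Of the 8 genes, Saa3, Slpi and Wfdc21 had high and low libraries that did not overlap, all 3 higher in high, where 5.9% of tested genes were higher without overlap.

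Chil1, the chitinase-like gene, had 62.4, 280 and 254 CPM in low replicates 1 to 3, 146, 384 and 435 CPM in middle, and 154, 610 and 552 CPM in high. The groups overlap, because replicate 1 of the high group was below replicates 2 and 3 of the low group, yet the level climbed with stiffness within each number. High against low gave 1.17 ± 0.13 (adjusted p = 0.000278), and 1.14 ± 0.70 on the groups alone (adjusted p = 0.835). Within replicates 1, 2 and 3 the difference was 1.30, 1.12 and 1.12 on the log2 scale.

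Retnlg, the resistin-like gene, had 44.7, 459 and 427 CPM in low replicates 1 to 3, 31.8, 228 and 294 CPM in middle, and 31.3, 123 and 127 CPM in high. In replicates 2 and 3 it was lower at each step in stiffness, while replicate 1 was low in all gels and below every other library. High against low gave -1.42 ± 0.30 (adjusted p = 0.0302), and -1.73 ± 1.01 on the groups alone (adjusted p = 0.814). The call ended without low replicate 2 (-1.18, adjusted p = 0.0947), low replicate 3 (-1.37, adjusted p = 0.103), middle replicate 2 (-1.40, adjusted p = 0.0674), high replicate 2 (-1.20, adjusted p = 0.143) or high replicate 3 (-1.20, adjusted p = 0.108). In these bulk libraries fewer cells of a type and less RNA per cell cannot be told apart. The 10 neutrophil markers summed to 2381, 8950 and 9387 CPM in high replicates 1 to 3, against 2095, 13791 and 13896 CPM in low, so in replicates 2 and 3 they were lower beside Retnlg. The 10 macrophage markers summed to 7558, 5533 and 5021 CPM in high, against 8322, 8553 and 8322 CPM in low, so they were lower as well. Of the neutrophil markers 1 rose and 2 fell, and of the macrophage markers 2 rose and 5 fell. Among tested genes 6.72% rose and 8.73% fell. The part of either list in the result was not tested.

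S100a8 had 977, 5699 and 3953 CPM in low replicates 1 to 3, 1335, 4308 and 5310 CPM in middle, and 1382, 3611 and 3502 CPM in high. S100a9 had 995, 5379 and 4156 CPM in low, 1118, 3762 and 4690 CPM in middle, and 1065, 3537 and 3316 CPM in high. For both genes the groups overlap almost fully, since replicate 1 was the lowest library at every stiffness. High against low gave -0.12 ± 0.21 for S100a8 (adjusted p = 0.744) and -0.29 ± 0.15 for S100a9 (adjusted p = 0.219). In replicates 2 and 3 alone, with no block, S100a9 gave -0.48 ± 0.12 (adjusted p = 0.0148) and S100a8 gave -0.44 ± 0.16 (adjusted p = 0.0658), and with the block S100a9 was also called without low replicate 1 (-0.43, adjusted p = 0.0337). The ratio of S100a8 to S100a9 per kilobase, the partners of calprotectin, was 1.31, 1.42 and 1.27 in low, 1.60, 1.53 and 1.51 in middle and 1.74, 1.36 and 1.41 in high. The ratio was above 1 in every library, while the level of S100a8 varied 5.83-fold and that of S100a9 5.4-fold between libraries.

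Lyz2 had 5518, 11833 and 10767 CPM in low replicates 1 to 3, 8379, 10878 and 11802 CPM in middle, and 9389, 12655 and 11355 CPM in high. Low replicate 1 was the lowest library by a wide margin, and apart from it the groups overlap. High against low gave 0.30 ± 0.15 (adjusted p = 0.189). Some reads may not tell Lyz2 from Lyz1, a near-identical lysozyme gene, whose mean was 8.96 CPM, so the counts of either carry that uncertainty.

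**Figure D2:**
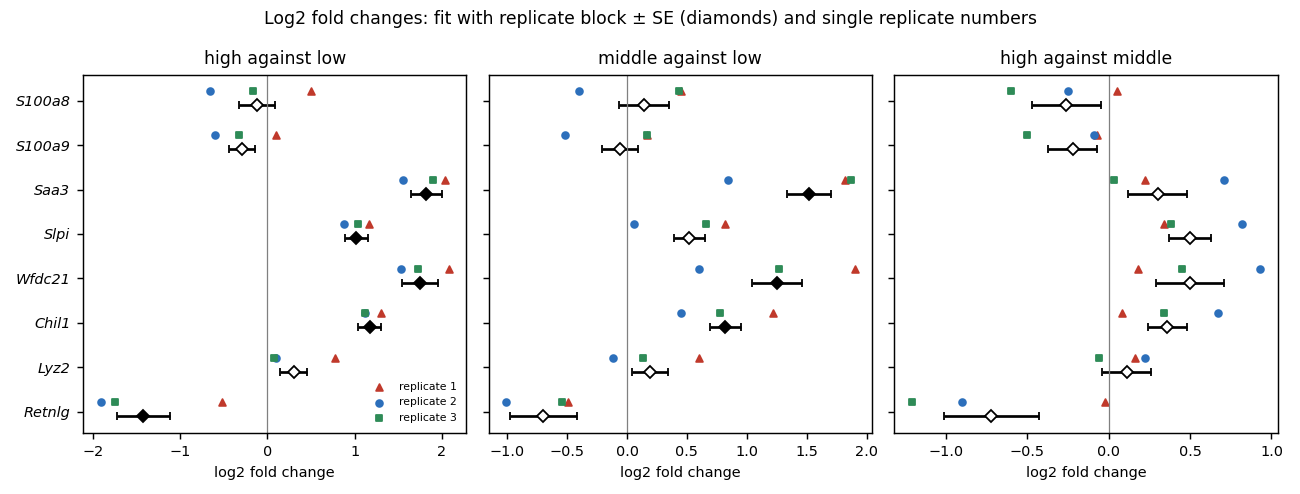
Log2 fold changes of the 8 genes (y axis) in high against low, middle against low and high against middle (x axes, log2 fold change, each panel on its own scale): diamonds with bars are the fit with the replicate block ± standard error, filled where the adjusted p is under 0.05, and coloured markers are the difference within each replicate number. In high against low, Saa3, Slpi, Wfdc21 and Chil1 lie right of 0 in all 3 numbers, Retnlg lies left of 0, and S100a8 and S100a9 straddle it.

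Between middle and low stiffness, the smaller of the steps from the control, Saa3, Wfdc21 and Chil1 rose, while Slpi and Retnlg passed the threshold only in some alternatives. Saa3 gave 1.52 ± 0.18 (adjusted p = 0.0056), Wfdc21 1.25 ± 0.21 (adjusted p = 0.0422) and Chil1 0.82 ± 0.13 (adjusted p = 0.0107). With the block 3 of the 8 were thus called, where 1.84% of all tested genes were called and 0.81% of tested genes were called higher. The groups alone called 0 of the 8 and 0% of the tested genes by edgeR (2 of the 8, Saa3 and Wfdc21, and 2.63% of tested genes at an unadjusted p under 0.05), and 0 of the 8 and 0.231% of genes by DESeq2. Saa3 and Wfdc21 were higher in every middle than in every low library, where 3.56% of tested genes were. Slpi gave 0.52 ± 0.13 (adjusted p = 0.0734), and with the block it was called higher with no filter on low counts (adjusted p = 0.0274), in DESeq2 (adjusted p = 0.00491), with a block of 2 levels (adjusted p = 0.0482) and without low replicate 2 (0.67, adjusted p = 0.0499) or middle replicate 2 (0.70, adjusted p = 0.0362). Retnlg gave -0.70 ± 0.28 (adjusted p = 0.349), and with the block it was called lower with the middle and low groups fitted alone (-0.69, adjusted p = 0.017), without high replicate 1 (-0.69, adjusted p = 0.00426) and without replicate 1 (-0.78, adjusted p = 0.000188). S100a8, S100a9 and Lyz2 lay between -0.06 and 0.19. Saa3 was called in all 9 fits that left out a single library. The call of Chil1 ended without low replicate 3 (adjusted p = 0.0592), middle replicate 1 (adjusted p = 0.0555) or middle replicate 3 (adjusted p = 0.0757), and that of Wfdc21 in 6 of 9 such fits, without low replicate 3, middle replicate 1 or 3, or any 1 of the high libraries (adjusted p = 0.0509 to 0.179).

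Between high and middle stiffness no gene of the set was called by edgeR with the block, where 0.0165% of all tested genes were called (3 of the 8, Slpi, Wfdc21 and Chil1, and 10.5% of tested genes at an unadjusted p under 0.05). DESeq2 with the block called 1 of the 8, Slpi (0.52, adjusted p = 0.0163), and 0.9% of the genes it tested. On the groups alone edgeR called 0 of the 8 and 0% of tested genes (0 of the 8 and 1.48% of tested genes at an unadjusted p under 0.05), and DESeq2 called 0 of the 8 and 0.00581% of genes. The values were 0.50 ± 0.13 for Slpi (adjusted p = 0.199), 0.50 ± 0.21 for Wfdc21 (adjusted p = 0.47), 0.36 ± 0.12 for Chil1 (adjusted p = 0.34), 0.30 ± 0.18 for Saa3 (adjusted p = 0.611) and -0.72 ± 0.29 for Retnlg (adjusted p = 0.481). For Saa3 the point estimate of the upper step was thus smaller than that of the lower step, 0.30 against 1.52 on the log2 scale. The first 4 of these were higher in high than in middle in all 3 replicate numbers (16.4% of tested genes were), and Retnlg and S100a9 were lower in all 3 (17.1%). The middle libraries enter both steps, so the values of the steps are not independent.

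Replicates 2 and 3 taken alone, with 2 libraries a group and no block, gave a smaller spread. High against low called 6 of the 8: Saa3 (1.70 ± 0.22), Wfdc21 (1.62 ± 0.12), Chil1 (1.12 ± 0.09) and Slpi (0.95 ± 0.12) rose, and Retnlg (-1.83 ± 0.11) and S100a9 fell. High against middle called 4, with Wfdc21 (0.69 ± 0.12, adjusted p = 0.00622), Slpi (0.60 ± 0.12, adjusted p = 0.0119) and Chil1 (0.50 ± 0.08, adjusted p = 0.00425) higher and Retnlg lower (-1.06 ± 0.10, adjusted p = 0.000232). Middle against low called 4, with Saa3 (1.34 ± 0.22), Wfdc21 (0.93 ± 0.12) and Chil1 (0.61 ± 0.08) higher and Retnlg lower (-0.77 ± 0.10). Of all genes tested, these fits called 26.3% for high against low, 6.88% for high against middle and 6.42% for middle against low.

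By replicate number, all 8 genes differed between replicate 1 and the average of the other numbers, where 65.4% of all tested genes did. Of the 8, 7 were lower in replicate 1 (32.5% of tested genes were lower) and Slpi was higher (32.9% higher). Retnlg differed by -2.76 ± 0.29, S100a9 by -1.95 ± 0.14, S100a8 by -1.82 ± 0.20 and Chil1 by -1.82 ± 0.12. The level in replicate 1 was 6.78-fold lower for Retnlg, 3.86-fold lower for S100a9, 3.53-fold lower for S100a8 and 3.54-fold lower for Chil1. Saa3 differed by -1.05 ± 0.16, Lyz2 by -0.60 ± 0.13 and Wfdc21 by -0.55 ± 0.19, and Slpi by 0.66 ± 0.11. The adjusted p was 2.62e-07 for Chil1, 5.62e-07 for S100a9, 5.49e-05 for S100a8, 0.000345 for Retnlg, 0.000284 for Saa3, 0.000249 for Slpi, 0.00189 for Lyz2 and 0.0359 for Wfdc21.

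S100a8, S100a9, Chil1, Lyz2 and Retnlg did not overlap between replicate 1 and the other 6 libraries, each lower in replicate 1, where 26.5% of tested genes were lower without overlap. Saa3, Slpi and Wfdc21 did overlap. Any gene whose high and low groups are apart must do so, and these 3 were such genes, so this is no separate result. The call of Wfdc21 ended without low replicate 1 (-0.33, adjusted p = 0.0598), low replicate 3, middle replicate 3 or any 1 of the high libraries (adjusted p up to 0.171). It also ended with no filter on low counts (-0.55, adjusted p = 0.0881). Leaving out low replicate 1 moved the value of Wfdc21 by over 1.5 times. Between replicates 3 and 2, 0 of the 8 genes and 0% of tested genes differed by edgeR (0 of the 8 and 1.24% of tested genes at an unadjusted p under 0.05), with log2 fold changes of -0.17 to 0.10. The neutrophil markers were lower in replicate 1 beside the set, 8 of 10 of them called lower and 0 higher, and of the 10 macrophage markers 6 were called lower and 2 higher, where 32.5% of tested genes were lower and 32.9% higher. Their part in the result was not tested.

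**Figure D3:**
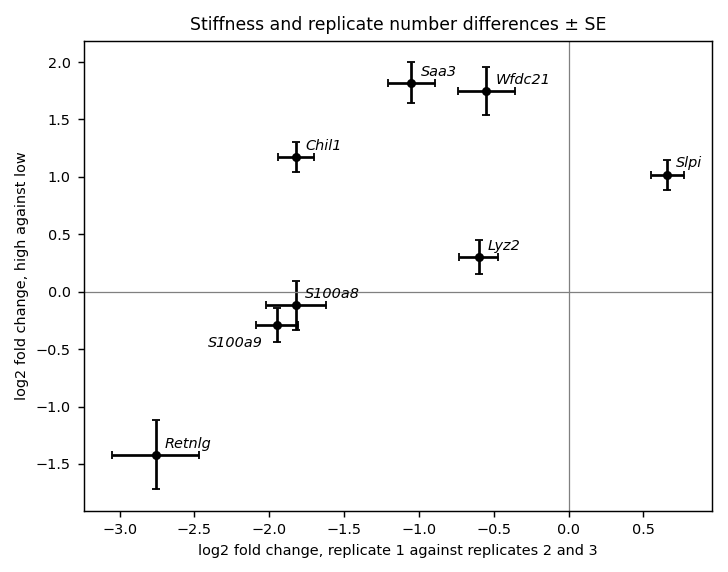
Log2 fold change of high against low (y axis) against the log2 fold change of replicate 1 against replicates 2 and 3 (x axis) for the 8 genes, with standard errors as bars, from the fit with group and replicate number. Slpi is the only gene of the set at the upper right (0.66 and 1.02), Retnlg stands alone at the lower left (-2.76 and -1.42), and S100a8 and S100a9 lie far left but near 0 on the y axis.

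The effect of stiffness itself differed between replicate 1 and the other numbers for 2 of the 8 genes, where 8.36% of all tested genes were called for this difference and 2.52% of tested genes were called with the larger value of high minus low in replicate 1. For Retnlg, high minus low was -0.52 on the log2 scale in replicate 1, against -1.91 and -1.75 in replicates 2 and 3, a difference of 1.31 ± 0.20 (adjusted p = 0.00246). For Lyz2, high minus low was 0.77 in replicate 1, against 0.10 and 0.08 in replicates 2 and 3, a difference of 0.68 ± 0.16 (adjusted p = 0.0209). That of Lyz2 missed the threshold without low replicate 2 (0.64, adjusted p = 0.0644). S100a8 had 0.50 in replicate 1, against -0.66 and -0.17 in replicates 2 and 3, a difference that missed the threshold (0.94 ± 0.27, adjusted p = 0.0672) and passed it without low replicate 3 (1.21, adjusted p = 0.00288). S100a9 had 0.10 in replicate 1, against -0.60 and -0.33 in replicates 2 and 3 (0.57 ± 0.22, adjusted p = 0.141, and 0.78, adjusted p = 0.0356, without low replicate 3). Beside Retnlg and Lyz2, the difference was called higher for 5 of the 10 neutrophil markers (1 lower), 6 of the 10 macrophage markers (0 lower) and 5 of the 5 erythroid markers, and their part in the result was not tested. Replicate 1 has 1 library a group in this test, and is assumed to vary like the others. For Saa3, Slpi, Wfdc21 and Chil1 the differences were 0.34 ± 0.39, 0.21 ± 0.21, 0.47 ± 0.23 and 0.18 ± 0.16, none called in this fit. With no filter on low counts Saa3 (0.36), Wfdc21 (0.49), S100a8 (0.97) and S100a9 (0.6) were called as well, so these calls depend on the filter.

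Correlations of log2 CPM describe which members moved together, over 9 libraries that share the gap between replicate 1 and the rest. Over all 9, S100a8 and S100a9 had a Pearson correlation of 0.99, and Retnlg correlated with them at 0.925 and 0.952. Slpi ran opposite to these, at -0.546 with S100a8, -0.619 with S100a9 and -0.807 with Retnlg. In the same order Saa3 had 0.527, 0.45 and 0.173, and Wfdc21 had 0.332, 0.252 and -0.038. After the mean of each replicate number was subtracted, the remaining differences put Saa3, Slpi, Wfdc21 and Chil1 together, with pairwise correlations of 0.936 to 0.998. Wfdc21 with Chil1 had the highest (0.998), having had 0.761 before, and Slpi with Chil1 had 0.97, having had -0.09. Retnlg then ran opposite to these 4 genes, at -0.766 to -0.831, and Lyz2 ran with them at 0.742 to 0.792. With number means removed the differences between stiffnesses remain, along which these 4 genes rose and Retnlg fell. The grouping thus restates those calls from the same libraries and is no separate evidence. S100a8 and S100a9 still correlated at 0.879, and S100a9 with Retnlg at 0.797.

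Among the 9339 genes that averaged 5 CPM or more, those whose pattern over the 9 libraries was most like S100a8 were Tuba1a (0.991), Mettl9 and Ceacam10 (0.989 each), and those most like S100a9 were Acvrl1 (0.996), Rab3d and 6430548M08Rik (0.995 each). For Saa3 they were Hdac1 (0.984), Dnajc10 (0.979) and Cmtm7 (0.975), for Slpi Txn2 (0.988), Reep5 (0.984) and Mfsd10 (0.98), and for Wfdc21 Gng10 (0.98), Cyp51 (0.977) and Vamp3 (0.974). Chil1 was most like Hp (0.997), the gene of the acute phase protein haptoglobin, then Lpcat2 (0.994) and Rab32 (0.992). Lyz2 was most like Marco (0.988), a scavenger receptor of macrophages, then Slc25a1 (0.973) and Rtn3 (0.971), and Retnlg most like Dram2 (0.995), Max (0.994) and Alox12 (0.992). With replicate number means subtracted, Hp was first for Wfdc21 (0.997), followed by Gng10 (0.996) and Cmtm7 (0.994). Txn2 stayed first for Slpi (0.998), followed by Ruvbl2 and Mecr (0.997 each), and Hdac1 stayed among the 3 for Saa3 (0.99), between Adam15 (0.995) and Gdi2 (0.989). The others were Rhog (0.996), Rassf4 (0.994) and Smpdl3b (0.993) for Chil1, Tkt (0.989), Ufsp2 (0.988) and Stt3b (0.987) for Lyz2, and Snx5 (0.995), Itgb2l (0.991) and Nr1h3 (0.989) for Retnlg. For S100a8 they were Caml (0.993), Desi1 (0.989) and Mrpl47 (0.981), and for S100a9 Dynlt1f (0.977), Tceanc2 (0.962) and Tmem70 (0.961). With 9 libraries and 9339 candidate genes, correlations of this size are found for every member.

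The relatives, partners and regulators of the set were counted in high against low with the block, where 6.72% of all tested genes rose and 8.73% fell. Of 16 other acute phase genes 6 were tested, of which 4 rose and 0 fell, with a median of 0.92 beside 0.00 for all tested genes. Lcn2, whose product binds bacterial iron carriers, had 1294, 3160 and 3738 CPM in high replicates 1 to 3, against 420, 1529 and 1489 CPM in low (1.32 ± 0.16, adjusted p = 0.000625). Hp had 354, 1010 and 955 CPM in high, against 149, 569 and 476 CPM in low (1.01 ± 0.14, adjusted p = 0.00134). Orm1, of the orosomucoids, gave 1.16 ± 0.24 (adjusted p = 0.013) and Orm3, chosen after its value was seen, 0.83 ± 0.24 (adjusted p = 0.0383). In middle against low Lcn2 (0.92 ± 0.16) and Hp (0.70 ± 0.14) rose and the other 4 were not called. By replicate number 5 of the 6 were lower in replicate 1 and 0 higher, where 32.5% of tested genes were lower.

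Of 14 other S100 genes 7 were tested, of which 1 rose and 1 fell, where 15.5% of tested genes were called either way. S100a4, which binds myosin, gave 0.88 ± 0.19 (adjusted p = 0.0133), with 64.5, 14.7 and 12.9 CPM in high replicates 1 to 3, against 25.1, 9.92 and 8.26 CPM in low, and S100a7a gave -2.62 ± 0.57 (adjusted p = 0.0113) at a mean of 0.727 CPM. S100a5, S100g and S100z were at 0 in every library. Of 24 other WFDC genes and antiproteases 13 were tested, of which 1 rose and 2 fell, beside the same 15.5% of tested genes. Stfa3, a cysteine protease inhibitor of the stefin family, gave 1.16 ± 0.24 (adjusted p = 0.00885), Serpinb1a, an inhibitor of neutrophil serine proteases, -0.69 ± 0.15 (adjusted p = 0.0111), and Timp2, an inhibitor of matrix metalloproteinases, -0.48 ± 0.11 (adjusted p = 0.0174). Wfdc17, a relative of Slpi and Wfdc21 chosen after its value was seen, gave 0.23 ± 0.17 (adjusted p = 0.393) at a mean of 70.3 CPM. The Stfa genes are near-identical copies that some reads may not tell apart, so the value of Stfa3 is uncertain.

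Elane, Prtn3 and Ctsg, the serine proteases of neutrophil granules all fell, with values of -1.77 ± 0.30 (adjusted p = 0.00665), -1.08 ± 0.29 (adjusted p = 0.0388) and -1.16 ± 0.32 (adjusted p = 0.0423). Their summed level was 3.98, 30.7 and 28.1 CPM in high replicates 1 to 3, against 9.57, 77.3 and 71.7 CPM in low, so high and low overlap only through replicate 1. The ratio of Slpi counts to the summed counts of the 3 proteases was 347, 31.0 and 29.3 in high replicates 1 to 3. It was 546, 8.48 and 9.2 in middle and 64.5, 6.68 and 5.58 in low. In replicate 1 the ratio was thus highest in the middle gel. The proteases summed to only 2 CPM in that library, so the ratios of replicate 1 rest on few counts. Of 8 chitinase-like and lysozyme relatives 5 were tested, and Chil5 fell (-1.91 ± 0.34, adjusted p = 0.00463) at a mean of 2.3 CPM. Retn, the only tested gene of 3 in the resistin family besides Retnlg, had 0.883 CPM on average (-0.47 ± 0.42, adjusted p = 0.496), and Retnla, which was not tested, had 0.229 CPM.

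Of 14 genes for receptors and binding partners of these proteins 13 were tested, of which 4 rose and 0 fell, with a median of 0.22. Fpr2, a formyl peptide receptor that also binds serum amyloid A, gave 1.07 ± 0.13 (adjusted p = 0.000478), Emb, for embigin, a reported binding partner of S100A8 and S100A9, gave 0.67 ± 0.10 (adjusted p = 0.00154), and Cd14, a co-receptor of TLR4, gave 1.34 ± 0.22 (adjusted p = 0.00792). The remaining called gene was Scarb1 (0.41 ± 0.10, adjusted p = 0.0159), a lipoprotein receptor chosen after its value was seen. Of 13 C/EBP, STAT3 and NF-kB genes with related receptors 3 rose and 1 fell, with a median of 0.17. Nfkb1 gave 0.80 ± 0.09 (adjusted p = 0.000386), Cebpb 0.45 ± 0.09 (adjusted p = 0.00606) and Nfkbiz 0.77 ± 0.19 (adjusted p = 0.0273), and Cebpe, a factor of late granulocyte maturation named after its value was seen, fell (-0.71 ± 0.20, adjusted p = 0.0326). Nfkb1 did not overlap between high and low, at 217, 253 and 250 CPM in high replicates 1 to 3, against 147, 134 and 134 CPM in low. Of all tested genes 5.9% were higher in high without overlap. On the groups alone 0 genes of these 8 lists were called, and in high against middle with the block 0 were.

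**Figure D4:**
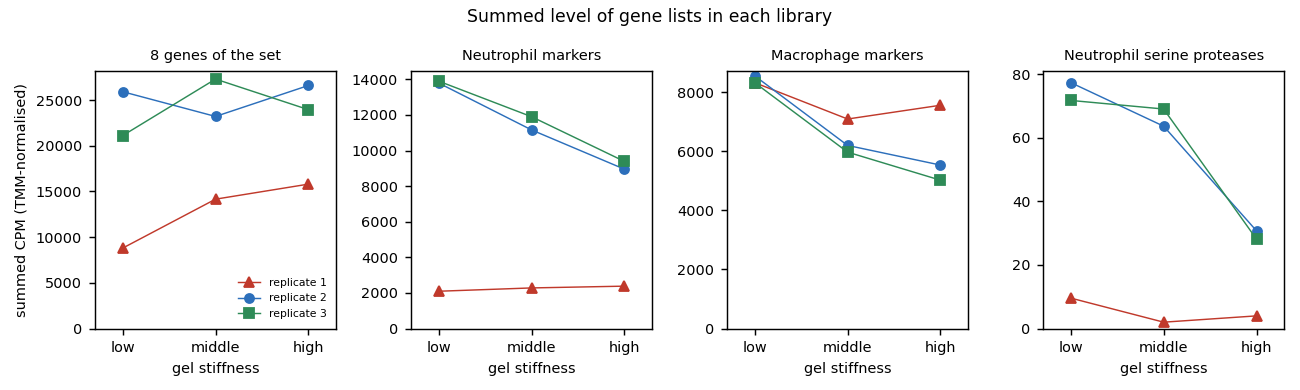
Summed level (y axis, TMM-normalised CPM, linear and starting at 0) of the 8 genes, 10 neutrophil markers, 10 macrophage markers and 3 neutrophil serine proteases in the 9 libraries by gel stiffness (x axis), with 1 line and marker for each replicate number. The sum of the 8 genes holds Lyz2, S100a8 and S100a9 for the most part and has no common slope. Neutrophil markers and proteases descend with stiffness in replicates 2 and 3 and lie low in replicate 1 throughout. Macrophage markers also descend in replicates 2 and 3, and in replicate 1 they are highest in the low gel.

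Markers of other cells were counted in high against low with the block, where 6.72% of tested genes rose and 8.73% fell. Macrophage markers summed to 7558, 5533 and 5021 CPM in high replicates 1 to 3, against 8322, 8553 and 8322 CPM in low, and of 10 markers 2 rose and 5 fell. The markers of the labelled cell type, neutrophils, summed to 2095, 2281 and 2381 CPM in replicate 1 of low, middle and high, below the macrophage markers there (8322, 7092 and 7558 CPM). In replicates 2 and 3 the neutrophil sum was the higher of these at every stiffness. These sums are CPM not divided by gene size, so their order does not rank the amounts of these cell types. Among the neutrophil markers Csf3r, the granulocyte growth factor receptor, had a mean of 966 CPM over the 9 libraries, and Ly6g had 20.2 CPM. T cell markers (4 of 5 are in the files) summed to at most 4.72 CPM, dendritic cell markers to 46.1 to 83.5 CPM, B cell markers to 31.6 to 206 CPM and erythroid markers to 226 to 785 CPM. Eosinophil, basophil and mast cell markers summed to 11 to 66.1 CPM and megakaryocyte markers to 25.7 to 206 CPM. No marker was at 0 in every library. In high against low 0 of these lists of other blood cells had a gene that rose. The genes that fell were 1 of 5 dendritic, 1 of 5 B cell, 2 of 5 eosinophil, basophil and mast cell and 2 of 4 megakaryocyte markers. Of the T cell and erythroid markers 0 were called, and lists this short say little beside the 8.73% of tested genes that fell. The part of any of these cells in the levels of the 8 genes was not tested.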

How the data were processed

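RNA was measured in 9 libraries, 3 for each gel stiffness. Per the labels' protocols, stranded poly(A) libraries were made from total RNA and sequenced in pairs of reads on an Illumina or MGI instrument, not named per library. The submitters' processing notes name cutadapt 1.9.1, HISAT2 2.0.1, HTSeq 0.6.1, DESeq2 and GRCm39, and their parameters are not given here. A deposited file covers 1 library and lists, for 22173 genes, raw counts, the authors' FPKM, and the deposited exonic gene size in bases, a column of another unit. The deposited FPKM equalled counts over size and total within 0.0051 FPKM in 100% of values and was not used further.

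Counts were kept by filterByExpr (12094 genes), scaled by TMM and fitted with edgeR 4.0.16 (quasi-likelihood, robust) in R 4.3.3 over all 9 libraries, on the groups alone and, in another fit, blocked by replicate number. Contrasts were two-sided, and p-values were adjusted by Benjamini-Hochberg over all tested genes, with a threshold of 0.05. Standard errors were worked out from each log2 fold change and the square root of its F statistic. The scripts were tested on simulated data. Further fits tested replicate 1 against replicates 2 and 3, replicate 3 against 2, and the difference of high minus low between replicate 1 and the others.

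Nothing in the labels ties same-numbered libraries to each other. With group means removed, the 9 pairs of libraries of the same number had correlations of 0.64 to 0.886, and the number was used as a block. Most of this is replicate 1 against the rest: replicate 2 with 3 of other groups had 0.587 to 0.749, and replicate 1 with 2 or 3 had -0.817 to -0.68. Same-number pairs within replicates 2 and 3 had 0.64 to 0.723, inside the range of replicate 2 with 3. These values thus show that replicate 1 is apart, and do not show pairing by number in replicates 2 and 3. No library pair of a group was the same within counting noise (chi-square per degree of freedom 5.21 to 209). The block lowered the biological coefficient of variation to 0.115, against 0.337 on the groups alone.

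Alternatives were RLE size factors, no filter on low counts, DESeq2 1.42.0, the compared groups alone, a block of 2 levels, and leaving out each library or number. The 8 genes, the lists and the rules were chosen with earlier results of these data known. Named genes are the 8, up to 3 called members of each list by smallest adjusted p (otherwise the 2 most abundant), and for each of the 8 the 3 genes of highest Pearson correlation of log2(CPM + 0.5), before and after subtraction of number means. Saa1, Saa2, Lyz1, Csf3r and Ly6g were named besides, after their values were seen. Promoters were read in Python 3.11.15 and plots made with matplotlib 3.10.9.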

Additional observations from a re-analysis of the deposited data

Results flagged for a closer look

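For Retnlg the difference of high minus low was not the same in replicate 1 as in replicates 2 and 3, by 1.31 on the log2 scale (standard error 0.20, adjusted p = 0.00246, edgeR's quasi-likelihood test). Its level in replicate 1 was 31.3 CPM in high and 44.7 CPM in low, against 123 and 127 CPM in high and 459 and 427 CPM in low in replicates 2 and 3. The neutrophil markers summed to 8950 and 9387 CPM in high and 13791 and 13896 CPM in low in replicates 2 and 3. There their sum was lower in high, as Retnlg was. The macrophage markers were lower in high there too, at 5533 and 5021 CPM, against 8553 and 8322 CPM in low. In replicate 1 the neutrophil markers summed to 2381 CPM in high and 2095 CPM in low, so their sum was higher in high where Retnlg was lower. The macrophage markers summed to 7558 CPM in high and 8322 CPM in low in replicate 1. The part of these markers in the result of Retnlg was not tested.

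For Lyz2 the same difference was 0.68 (standard error 0.16, adjusted p = 0.0209), with 9389 CPM in high and 5518 CPM in low in replicate 1, against 12655 and 11355 CPM in high and 11833 and 10767 CPM in low in replicates 2 and 3. The same difference was called higher for 6 of 10 macrophage markers and lower for 0 of them, and their sum was 7558 CPM in high and 8322 CPM in low in replicate 1, against 5533 and 5021 CPM in high and 8553 and 8322 CPM in low in replicates 2 and 3. It was also called higher for 5 of 5 erythroid markers, which summed to 785 CPM in high and 448 CPM in low in replicate 1, against 308 and 226 CPM in high and 538 and 517 CPM in low in replicates 2 and 3. Of the 10 neutrophil markers 5 were called higher and 1 lower for the same difference. Of all tested genes 2.52% were called higher and 5.84% lower. The part of these markers in the result was not tested. The value of Lyz2 missed the threshold without low replicate 2 (0.64, adjusted p = 0.0644).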

How the results depend on the processing

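Calls of stiffness over all 9 libraries differed with and without the replicate block, and without replicate 1 high against low called 3207 genes and 6 of the 8 with no block. High against low called 11 genes and 0 of the 8 on the groups alone, against 1869 and 5 with the replicate block, 1905 and 5 with RLE size factors beside it, 1859 and 4 with no filter on low counts, 1794 and 5 in DESeq2, 886 and 4 with the compared groups alone, and 2276 and 5 with a replicate block of 2 levels. Without the block DESeq2 called 254 genes and 2 of the 8, and the compared groups alone 0 genes. Middle against low called 0 genes and 0 of the 8 on the groups alone (32 genes in DESeq2), against 222 and 3 with the replicate block, and in the same order 233 and 3, 340 and 3, 439 and 4, 255 and 3, and 354 and 4. High against middle called 0 and 0 (1 gene in DESeq2), against 2 and 0 with the replicate block, and then 1 and 0, 40 and 0, 98 and 1, 118 and 1, and 16 and 0. The difference of high minus low between replicate 1 and the others called 1011 genes and 2 of the 8, and with no filter 1556 and 6.

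Leaving out a library or a number, with or without the block, gave 0 to 3207 genes and 0 to 6 of the 8 for high against low, 0 to 825 and 0 to 4 for middle against low, and 0 to 900 and 0 to 4 for high against middle. Leaving out a library gave 514 to 1603 genes and 1 to 4 of the 8 for the difference between numbers. Signs turned only for S100a8, S100a9 and Lyz2, in comparisons where they were not called. For high against low these fits gave -0.77 to 0.20 for S100a8, -0.85 to 0.04 for S100a9 and -0.02 to 0.46 for Lyz2. Middle against low gave -0.41 to 0.56 for S100a8, -0.58 to 0.31 for S100a9 and -0.13 to 0.35 for Lyz2, and high against middle gave -0.68 to 0.11 for S100a9 and -0.02 to 0.22 for Lyz2. With the block, the rise of Saa3, Chil1 and Slpi in high against low passed the threshold in every alternative run, and that of Wfdc21 in all but the fit without replicate 3 in every group (1.76, adjusted p = 0.0708). The fall of Retnlg also missed it with no filter (adjusted p = 0.0803), with the compared groups alone (adjusted p = 0.064), without replicate 2 (-1.11, adjusted p = 0.225) and without replicate 3 (-1.24, adjusted p = 0.193). In middle against low Wfdc21 missed it with no filter (adjusted p = 0.102) and with the compared groups alone (adjusted p = 0.189), Chil1 did without replicate 2 (0.99, adjusted p = 0.0608), and without replicate 3 Saa3 (1.33, adjusted p = 0.0764), Wfdc21 (adjusted p = 0.386) and Chil1 (adjusted p = 0.125) did. The cause was not tested. Each of the 8 genes had at least 430 counts in every library, and the parts of counting error and of the spread between libraries were not separated.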

Other observations

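Genes of liver secreted proteins, named after their values were seen, had most of their counts in 2 of the replicate 1 libraries. Summed over Fga, Fgb and Fgg (the fibrinogen chains), Hpx, Itih4, Serpina1a, Serpina1b and Crp, the counts were 192 in high replicate 1 and 212 in low replicate 1, against 1 in middle replicate 1 and 2 to 7 in each library of replicates 2 and 3. Fga alone had 20 counts in high replicate 1, 38 in low replicate 1 and 0 in the other 7 libraries, where a count of 0 allows up to 3 counts (0.154 to 0.227 CPM, for counting error only). None of these 8 genes passed the filter on low counts. Saa3 had 31395 counts in high replicate 1 and 7194 in low replicate 1.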
